A study of Homo sapiens with 22 samples.

Results

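Nuclear genes for the mitochondrial ribosome, the respiratory chain and the protein import machinery were described in lists of regions enriched for H3R2me2a, the asymmetric dimethylation of arginine 2 of histone H3. The members were the regions of the promoter and enhancer lists whose nearest gene name began with MRPL or MRPS and a digit, with NDUF, UQCR, ATP5, TIMM or TOMM, or with COX and a digit. This rule took 124 of 8819 regions and 111 of 6697 gene names. Names with a hyphen were left out, which removed 2 regions named for the antisense gene MRPL23-AS1 and 1 named for the readthrough gene NDUFC2-KCTD14. Of the members, 103 regions lay nearest to 96 protein-coding genes and 21 lay nearest to 15 pseudogenes. The rule used names only, and no measured value.

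The series holds 22 samples of chromatin immunoprecipitation sequencing from NT2/D1, a pluripotent human embryonal carcinoma line that differentiates under all-trans retinoic acid (ATRA). The lists came from the H3R2me2a libraries of CRISPR/Cas9 control cells given 1 µM ATRA for 3 days and of the same control cells without ATRA, precipitated with a rat monoclonal antibody made in the laboratory. The remaining samples, which include cells deleted for PRMT6, are not analysed here. Cluster III and the promoter and enhancer lists were deposited under the library with ATRA, and clusters I and II under the library without it. There was 1 library per condition, so no value has a replicate error, no difference between conditions has a replicate check, and no p-value is given. The lists hold no expression values, so the cell line was not checked against its markers.

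Mitochondrial DNA encodes a small part of the respiratory chain, and all other subunits, together with every protein of the mitochondrial ribosome, are made from nuclear genes and imported through the TOM and TIM translocases. MRPL and MRPS genes encode the large and small ribosomal subunits, and NDUF genes mainly complex I and its assembly factors. UQCR genes encode complex III, COX genes complex IV and its assembly factors, and ATP5 genes the ATP synthase. Many of these promoters are known to be bound by NRF1, by the ETS factor GABPA and by YY1, and H3R2me2a is placed mainly by the methyltransferase PRMT6.

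The promoters of 6 member genes are shown, chosen by their tag values among members whose window held a searched motif. MRPL24, UQCR10 and ATP5J had the highest tagcounts among members of cluster II whose window held a searched motif; MRPL11, between MRPL24 and UQCR10 in tagcount, held none. TOMM6, COX10 and COX17 had the highest ratios of MACS tags to tagcount among promoter-list members of cluster III. Each window runs 250 bases before to 50 bases after the RefSeq start on GRCh38.p14, in the direction of transcription. Capitals mark matches, on either strand, to the NRF1 core (GCGCA, any base, then GCGC), the ETS and GABPA core (CCGGAAG), the YY1 core (AAGATGGC), the SP1 box (GGGCGG), the CCAAT box (CCAAT) and the TATA box (TATAAA). None of these motifs contains another.
MRPL24 (chr1:156741039-156741338, minus strand): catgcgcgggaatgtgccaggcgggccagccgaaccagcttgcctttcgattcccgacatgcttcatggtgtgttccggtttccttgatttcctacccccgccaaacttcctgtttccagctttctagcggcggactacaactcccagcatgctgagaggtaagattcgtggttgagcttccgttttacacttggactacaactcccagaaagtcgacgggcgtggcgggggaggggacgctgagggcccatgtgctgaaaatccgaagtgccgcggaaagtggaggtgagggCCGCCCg
UQCR10 (chr22:29767119-29767418, plus strand): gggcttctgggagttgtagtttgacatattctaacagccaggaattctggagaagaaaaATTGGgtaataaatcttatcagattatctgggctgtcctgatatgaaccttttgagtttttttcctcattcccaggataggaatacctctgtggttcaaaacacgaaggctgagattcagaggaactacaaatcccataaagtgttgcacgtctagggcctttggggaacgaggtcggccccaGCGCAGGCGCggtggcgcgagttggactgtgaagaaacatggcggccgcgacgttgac
ATP5J (chr21:25735005-25735304, minus strand): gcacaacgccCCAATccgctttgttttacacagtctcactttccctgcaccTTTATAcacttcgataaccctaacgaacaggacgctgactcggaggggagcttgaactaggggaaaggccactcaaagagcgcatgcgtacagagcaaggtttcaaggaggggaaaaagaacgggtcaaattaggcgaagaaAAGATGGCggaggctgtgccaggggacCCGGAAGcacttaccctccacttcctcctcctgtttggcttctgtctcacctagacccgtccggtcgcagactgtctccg
TOMM6 (chr6:41787444-41787743, plus strand): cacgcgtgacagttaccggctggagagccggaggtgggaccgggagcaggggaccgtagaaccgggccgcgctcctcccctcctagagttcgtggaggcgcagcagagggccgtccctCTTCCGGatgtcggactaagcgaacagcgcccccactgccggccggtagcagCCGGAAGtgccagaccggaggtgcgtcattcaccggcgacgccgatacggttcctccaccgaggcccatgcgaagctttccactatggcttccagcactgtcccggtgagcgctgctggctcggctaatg
COX10 (chr17:14069254-14069553, plus strand): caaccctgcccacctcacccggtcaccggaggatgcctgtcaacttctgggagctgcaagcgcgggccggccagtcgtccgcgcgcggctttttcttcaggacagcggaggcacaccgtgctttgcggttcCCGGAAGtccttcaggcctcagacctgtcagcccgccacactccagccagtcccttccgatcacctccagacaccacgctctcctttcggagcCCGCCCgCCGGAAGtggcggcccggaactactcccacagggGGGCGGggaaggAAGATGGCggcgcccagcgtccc
COX17 (chr3:119677357-119677656, minus strand): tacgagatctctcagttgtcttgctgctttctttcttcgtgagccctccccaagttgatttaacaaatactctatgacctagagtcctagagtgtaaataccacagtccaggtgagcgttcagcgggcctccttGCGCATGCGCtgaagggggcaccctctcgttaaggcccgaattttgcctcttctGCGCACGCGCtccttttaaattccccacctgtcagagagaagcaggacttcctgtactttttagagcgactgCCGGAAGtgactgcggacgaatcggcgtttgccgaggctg
The transcript that the authors named for each region started at the RefSeq start for UQCR10, TOMM6 and COX10, and 43, 21 and 112 bp away for MRPL24, ATP5J and COX17. UQCR10 held an NRF1 core whose first base lay 8 bases before the start. ATP5J held the YY1 core 57 bases and the ETS core 30 bases before it. COX10 carried a YY1 core 28 bases after the start, and 2 ETS cores and 2 SP1 boxes, and TOMM6 carried 2 ETS cores. COX17 held 2 NRF1 cores and 1 ETS core, while MRPL24 held only an SP1 box near the end of its window. A match describes letters in the window and is not a measured binding site.

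Regions at the protein-coding members lay at gene starts. Of the 103 protein-coding regions, 93 were in the promoter list (90.3%, exact Clopper-Pearson 95% interval 82.9 to 95.2, which here and below covers counting error only), against 48% of all regions and 62% (60.7 to 63.2) of the 5683 regions of other protein-coding genes. Over all members the share was 95 of 124 (76.6%, 68.2 to 83.7). Regions of mitochondrial pathway genes outside the name rule, described below, were also mostly in the promoter list. Their counts ran from 7 of 9 regions (tricarboxylic acid cycle) to 12 of 12 (mitochondrial translation and tRNA charging). By distance, 95 of 103 protein-coding regions (92.2%, 85.3 to 96.6) lay within 1000 bp of a start, against 50.5% of all regions and 64.6% (63.4 to 65.9) of regions of other protein-coding genes. The median distance was 37 bp for protein-coding members, 166 bp for regions of other protein-coding genes and 933 bp for all regions. Within the promoter list the protein-coding members also lay close in, with a median of 34 bp (95% order-statistic interval 24 to 51), against 66 bp (62 to 70) for those of other protein-coding genes and 72 bp (69 to 76) for all promoter-list regions. Of these 93 regions, 90 lay within 300 bp of a start and 66 had a negative distance, which is upstream in the authors' signed column. Which point of a region the distance starts from is not stated in the sources used here.

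**Figure D1:**
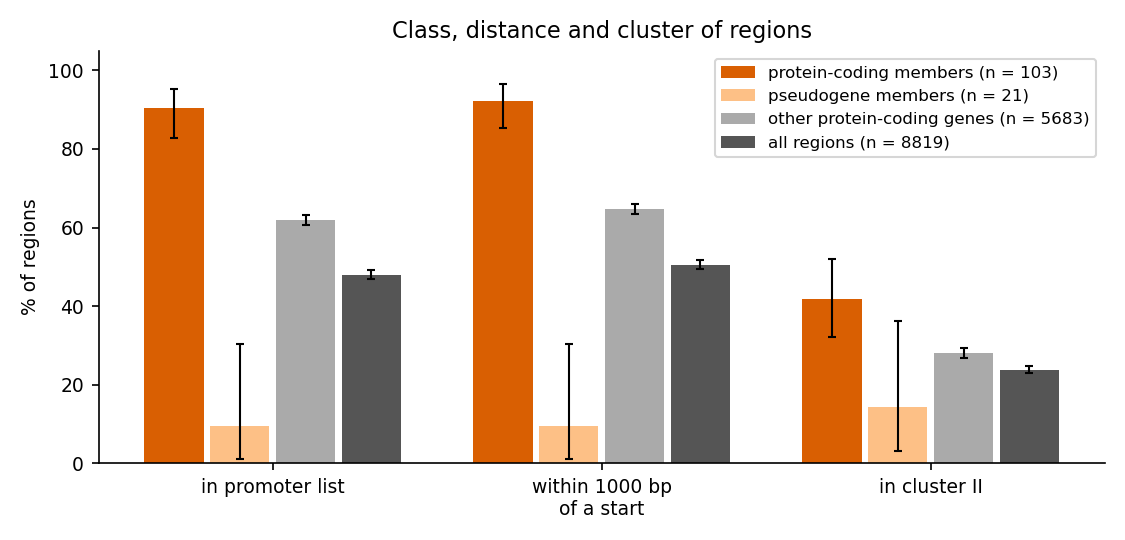
Share of regions (%, y axis) in the promoter list, within 1000 bp of a start and in cluster II, for protein-coding members (n = 103), pseudogene members (n = 21), regions of other protein-coding genes (n = 5683) and all regions (n = 8819); bars start at 0 and error bars are exact 95% intervals. Protein-coding members stand above other protein-coding genes (62%, 64.6% and 28%) and above all regions in the 3 shares, and pseudogene members stand below all regions in the promoter list (9.52%) and near starts.

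The pseudogene members went the other way. Only MRPL45P2 and MRPS31P5 of the pseudogenes had promoter-list regions, 117 and 18 bp from a start. The other 19 pseudogene regions were in the enhancer list, each more than 4000 bp from the pseudogene's start, with 12 intergenic, 6 intronic and 1 upstream by the authors' position class. The plot of class and cluster shares shows this split. For these 19 regions the name gives the nearest annotated transcript only.

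Cluster II, in which each region carries a pair of overlapping intervals, held 46 of 124 members (37.1%, 28.6 to 46.2), against 23.8% of all regions. For protein-coding members it was 43 of 103 (41.7%, 32.1 to 51.9), against 28% of regions of other protein-coding genes. Within the promoter list, 42 of 93 protein-coding member regions were in cluster II (45.2%, 34.8 to 55.8), against 35.5% of all promoter-list regions and 36.3% of those of other protein-coding genes. This interval includes both backgrounds, so the cluster II share within the promoter list did not stand apart from it at this number of regions. Cluster III held 50 of the 93 and cluster I held 1.

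Among the mitochondrial ribosome genes, 21 of 44 promoter-list regions were in cluster II, with 14 of 28 at MRPL and 7 of 16 at MRPS genes. Among respiratory chain genes, 17 of 40 were in cluster II. These comprised 6 of 19 NDUF, both UQCR, 5 of 10 COX and 4 of 9 ATP5 regions. Among translocase genes, 3 of 5 TIMM regions and 1 of 4 TOMM regions were in cluster II. Split by function, 14 of 31 regions at respiratory subunit genes and 3 of 10 regions at assembly factor genes were in cluster II. The cluster II regions of COX20, an assembly factor gene, share the second interval of their pair, as do those of MRPS22. The interval for the NDUF genes, 12.6 to 56.6%, overlapped that for the MRPL genes, 30.6 to 69.4%. Differences between families in cluster were not tested. Counted by gene, 40 promoter-list genes had a cluster II region and 48 a cluster III region. ATP5A1, which encodes the alpha subunit of the ATP synthase catalytic head, was the 1 gene with both.

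Tagcount, the whole number of tags that the promoter and enhancer lists give for each region, set 1 ribosomal promoter, MRPL24, far above the other members. Its library is not given. In cluster I it exceeded the tags of the library without ATRA by 0 to 8 (median 3), which points to that library. Sequencing depth is unknown, so tagcounts are compared with each other, and their ratio to MACS tags, given below, only between regions. The 42 cluster II promoter members ran from 35 to 553 (median 76.5), and all 1503 cluster II promoter-list regions had a median of 74. Per kilobase of region the medians were 133 tags for these members and 138 tags for all. The 50 cluster III promoter members ran from 8 to 117 with a median of 30, the same median as all 2708 cluster III promoter-list regions. Member promoters thus held ordinary levels for their clusters, and every cluster II value was at or above 35, the lowest of that cluster in the promoter list.

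**Figure D2:**
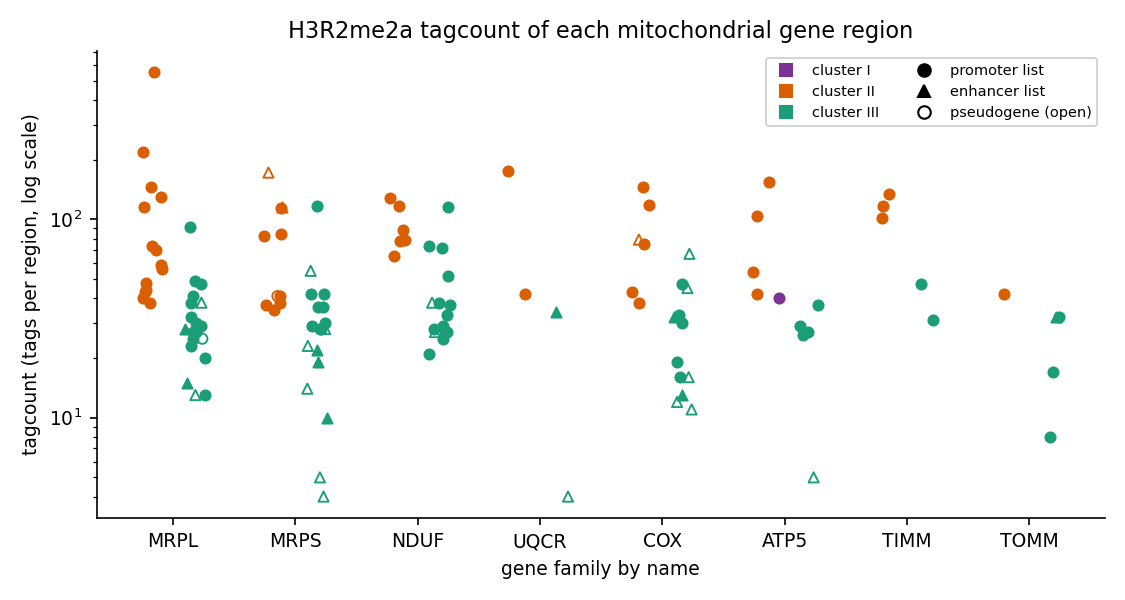
Tagcount of each of the 124 member regions (tags per region, log scale, y axis) by gene family (x axis), coloured by cluster; circles are promoter-list and triangles enhancer-list regions, and open symbols are pseudogenes. Most of the highest values are cluster II regions, MRPL24 stands highest at 553, and the lowest promoter-list value is TOMM6 at 8.

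The large ribosomal subunit held the strongest member. The MRPL24 promoter (hg19, chr1:156710457-156711484, 1028 bp) had a tagcount of 553, or 538 tags per kilobase, followed by MRPL11 with 218, MRPL50 with 146 and MRPL19 with 129. All 4 encode proteins of the large subunit, and MRPL24 stood apart from the others. In the small subunit, the highest tagcount belonged to MRPS21P7, a pseudogene whose intronic enhancer-list region of 1440 bp had 172. It was followed by MRPS35 with 117, the enhancer-list region of MRPS6 with 115 and MRPS15 with 114.

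Among complex I genes, high tagcounts were found at NDUFA3 (128), NDUFA9 (116) and NDUFS3 (88). NDUFA3 encodes a supernumerary subunit, and NDUFS3 encodes a core subunit of the arm that reduces ubiquinone. Another core subunit gene of that arm, NDUFS7, had 79, whereas NDUFV1, which encodes the subunit that accepts electrons from NADH, had 28. At complex III, UQCR10 had 176, UQCRC2 had 42, a region 7721 bp from a start of UQCRH had 34, and one near the pseudogene UQCRHP4 had 4.

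At complex IV the highest tagcounts were at COX7C (145) and COX7B (118), which encode small structural subunits, and after an enhancer-list region near the pseudogene COX6CP2 (79) came COX20 (75), which encodes an assembly chaperone. The assembly factor promoters as a group, 10 regions at COX, NDUFAF and TIMMDC1 genes, ran from 16 to 75 (median 35.5). The 31 promoter-list regions of respiratory subunit genes ran from 21 to 176 (median 52). The order-statistic intervals of these medians, 19 to 47 for assembly factors and 37 to 79 for subunits, overlapped. ATP synthase promoters were led by ATP5J (155) and ATP5D (104), which encode subunits of the stalks, and then ATP5J2 (54) and ATP5A1 (42 in cluster II).

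Import genes showed high and low promoters side by side. TIMM21 (134) and TIMM22 (117), components of the inner membrane translocases, and TIMM13 (102), a small chaperone of the space between the membranes, were in cluster II. TIMMDC1 (47), a complex I assembly factor despite its name, and TIMM17A (31), a subunit of the presequence translocase, were in cluster III. At the outer membrane, TOMM40L had 42, the receptor gene TOMM22 had 32, an enhancer-list region near TOMM7 had 32 and the receptor gene TOMM20 had 17. The small subunit gene TOMM6 had 8, the lowest of all promoter-list members.

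The short arm of chromosome 12 held 2 member promoters, and these had the highest tagcounts of the cluster III promoter members. NDUFA9 had 116 over 1055 bp and MRPS35 had 117 over 1119 bp, and the other 48 had at most 91. Cluster III promoter-list regions on that arm, 208 in all, were also strong and wide, with a median tagcount of 63.5 and a median width of 846 bp, against 29 and 522 bp for the 2500 elsewhere. The part that the arm played in the values of both genes was not tested.

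Cluster III regions carry MACS tags, deposited under the library with ATRA, beside tagcount. All 50 protein-coding promoter members had more MACS tags than tagcount, as did 6412 of all 6519 cluster III regions. Their MACS tags ran from 30 to 147 with a median of 59, and their tagcounts had a median of 30. The median ratio, after 1 was added to each count, was 1.67 (1.45 to 1.95) for these members and 1.74 (1.72 to 1.78) for all cluster III promoter-list regions. A ratio of at least 2 was reached by 16 of the 50 (32%, 19.5 to 46.7), against 32.5% of all such regions. In the enhancer list, 18 of 26 cluster III members reached it, against 65.2% of all. Both member shares lay near their background. The ratio compares columns that may come from libraries of unequal depth, so its distance from 1 cannot be read as a change under ATRA. The criteria for cluster III are also not stated. If they favoured regions with more tags under ATRA, MACS tags above tagcount would follow from that selection.

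**Figure D3:**
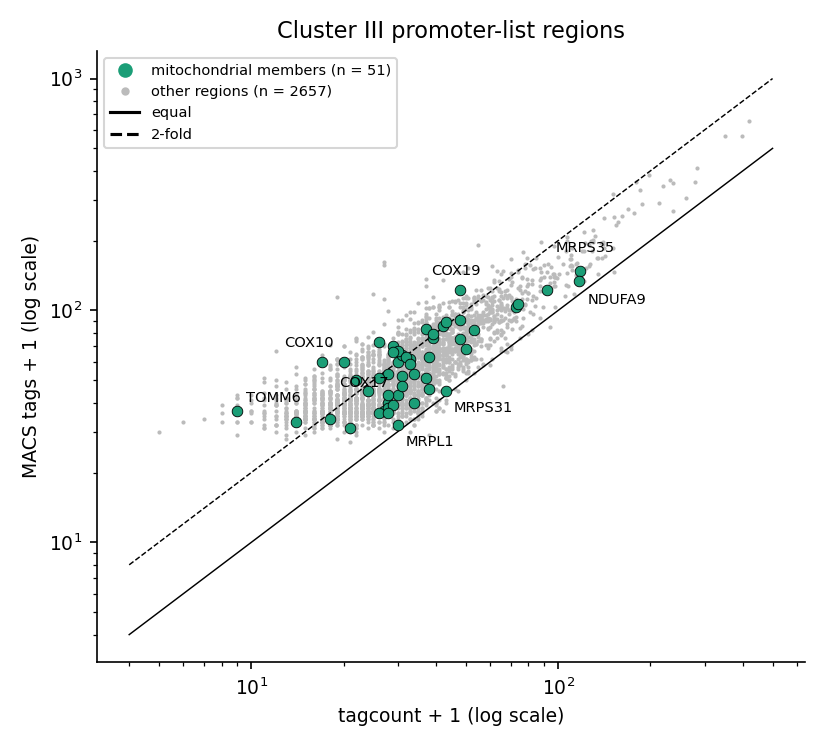
MACS tags + 1 (y axis) against tagcount + 1 (x axis), both on log scales, for the 51 cluster III promoter-list members, of which 50 are protein-coding, and the other 2657 regions; the solid line marks equal counts and the dashed line a 2-fold ratio. The members lie within the cloud of other regions, with TOMM6, COX10 and COX17 above the dashed line at low tagcount.

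The largest ratios belonged to pseudogene-named enhancer regions. A region 96069 bp from ATP5A1P1 had 128 MACS tags and a tagcount of 5, and one near UQCRHP4 had 51 and 4. The regions near MRPS36P3 (38 and 4), MRPS6P4 (36 and 5, and 170 and 28) and COX5BP1 (86 and 16) followed. At the tagcounts of 4 and 5, a difference of 1 tag changes the ratio by a large part of its value.

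Among protein-coding promoters, TOMM6 had 36 MACS tags and a tagcount of 8. COX10, which encodes the farnesyltransferase of haem A synthesis, had 59 and 16. COX17, a copper chaperone gene for complex IV, had 59 and 19, NDUFA10 of complex I had 72 and 25, and COX19, whose product also serves copper delivery, had 122 and 47. These 5 promoters were the highest in ratio, from 4.11 for TOMM6 to 2.56 for COX19. No cluster III promoter-list member had fewer than 30 MACS tags, so a low tagcount came with a high ratio. Other cluster III promoter-list regions with a tagcount of 8 had, for example, 37 and 42 MACS tags, so TOMM6 did not stand apart from them. At the other end, MRPS31 had 44 and 42, MRPL1 had 31 and 29, NDUFA9 had 133 and 116, and an enhancer-list region at COX20 had 35 and 32. The lowest ratios were below 1, at enhancer regions near COX6B1P7 (34 and 45) and MRPL45P1 (29 and 38).

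ATP5L, which encodes a membrane subunit of the ATP synthase, was the 1 member of cluster I (hg19, chr11:118272034-118272412). Its 36 MACS tags belong to the library without ATRA, and its tagcount was 40.

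In the enhancer list, 10 regions were named for protein-coding members, and 3 of these lay within 1000 bp of a start: MRPL28 at 19 bp upstream, MRPS28 at 1 bp and COX20 at 941 bp. The other 7 lay more than 5000 bp away. The farthest was in an intron 75164 bp from the named start of MRPS22 and had 37 MACS tags and a tagcount of 10. An intergenic region 42952 bp upstream of the named start of MRPS6 was the 1 protein-coding enhancer-list region of cluster II and had a tagcount of 115 over 662 bp. COX7A2L, MRPL23, MRPS9, TOMM7 and UQCRH had the rest, at tagcounts of 13 to 34. In the promoter list, 1 member lay far out, an intergenic region 7860 bp upstream of MRPL48 with 85 MACS tags and a tagcount of 41. A second MRPL48 region, at the start, had 121 and 91.

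Of the protein-coding genes, 5 had more than 1 region, and MRPL48 is described above. COX20 had 3, with tagcounts of 75, 38 and 32, and MRPS22 had 3, with tagcounts of 82 and 35 at the start and 10 in the intron. MRPS2 had 2 cluster III regions with tagcounts of 28 and 29, and ATP5A1 had a cluster II region (42) and a cluster III region (27), each within 12 bp of a start that the authors named. Of the pseudogenes, MRPS6P4 had 3 regions and COX6B1P7, MRPS21P7, MRPS36P3 and NDUFB1P2 had 2 each. Regions of the same gene share their locus and are not separate observations. Between member genes, the MRPL36 and NDUFS6 regions on chromosome 5 were 1168 bp apart, with tagcounts of 20 and 21.

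How much of each family was marked was read from the RefSeq list of nuclear protein-coding genes, with a gene counted when a region was named for it. Of 203 genes in the 8 families, 94 had a region within 1000 bp of a start (46.3%, 39.3 to 53.4), against 17.4% of all 20043 protein-coding genes. With any region, the count was 100 of 203 (49.3%, 42.2 to 56.4), against 22.3%. The comparison genes were not matched for expression, which the lists do not hold. All 111 member names but only 5278 of 6697 names in total matched RefSeq, so the shares of all genes may be too low. Of these 100 genes, 4 appear in the lists under older names that the rule does not take, and they are ATPIF1, ICT1, C17orf89 and C19orf52.

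**Figure D4:**
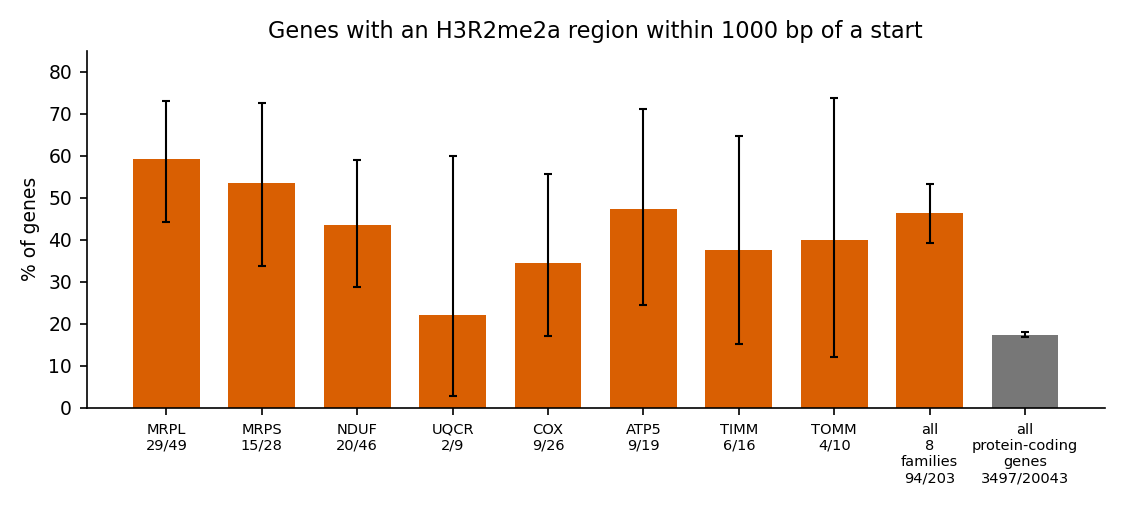
Share of nuclear protein-coding genes (%, y axis) with an H3R2me2a region within 1000 bp of a start, by family, over the 8 families together and over all protein-coding genes; counts stand under each bar, bars start at 0 and error bars are exact 95% intervals. The ribosomal families stand highest, with 29 of 49 MRPL and 15 of 28 MRPS genes, and the interval of the 8 families together lies above the 17.4% of all protein-coding genes.

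Ribosomal genes had the highest shares, with 29 of 49 MRPL genes (59.2%, 44.2 to 73) and 15 of 28 MRPS genes (53.6%, 33.9 to 72.5) marked within 1000 bp. The ATP synthase followed with 9 of 19 genes and the NDUF genes with 20 of 46. The NDUF genes include NDUFA4, whose RefSeq symbol is COXFA4, and the NDUFAF assembly factor genes. Shares were 9 of 26 for COX, 6 of 16 for TIMM, 4 of 10 for TOMM and 2 of 9 for UQCR genes. The intervals of all 8 families overlapped one another. Respiratory genes with no region included COX4I1, COX5B and COX6C of complex IV, ATP5F1B of the ATP synthase and UQCRFS1 of complex III, all genes that respiring cells use. Absence from the lists says that no region was listed, and a level below the authors' threshold cannot be told apart from no mark.

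The authors named 1 nearest gene per region, which matters where genes share a promoter. On GRCh38, 47 of 176 family genes in the RefSeq promoter table had a divergent neighbour starting within 1000 bp (26.7%, 20.3 to 33.9), against 10.3% of protein-coding genes. Of 84 family genes with no region, 28 had such a neighbour (33.3%), against 1154 of 12155 protein-coding genes with no region (9.49%). The neighbour had a region in 12 of the 28 family pairs, against 377 of the 1154. Among 87 family genes with a region within 1000 bp, 18 had a divergent neighbour (20.7%, 12.7 to 30.7). For all protein-coding genes with such a region it was 444 of 2958 (15%). Which gene of a pair those regions belong to was not tested. A region named for PSMA2, a proteasome gene, lay at the start shared with MRPL32 and had a tagcount of 130, and 1 named for NCAPD2 at the start shared with MRPL51 had 176 over 2094 bp, on the short arm of chromosome 12. The MRPL46 region, with a tagcount of 70, lies at a start shared with MRPS11, and both genes encode proteins of the mitochondrial ribosome. With the neighbour's region counted where a gene had none, 106 of 203 family genes (52.2%) were marked, against 19.3% of protein-coding genes treated alike.

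Genes of mitochondrial pathways outside the name rule were read the same way, with a region within 1000 bp. The share of all protein-coding genes with such a region was 17.4%. Among nuclear regulators of respiration genes, 7 of 12 had one (58.3%, 27.7 to 84.8). Of these, PPRC1, a coactivator of NRF1, had the highest tagcount, 262. TFEB followed with 91, at an enhancer-list region. GABPB1 and GABPB2, which encode partners of GABPA, had 47 and 62. Among genes for protein folding and proteolysis, 11 of 21 had one (52.4%, 29.8 to 74.3), led by HSPD1, the mitochondrial chaperonin, with 408. The prohibitins PHB and PHB2 had 158 and 109, the second of them on the short arm of chromosome 12. In mitochondrial translation and tRNA charging, 12 of 29 had one (41.4%, 23.5 to 61.1). YARS2 (283) and the release factor gene MTRF1 (213) led in tagcount. The YARS2 region, on the short arm of chromosome 12, was 3469 bp wide and had 81.6 tags per kilobase, while that of MTRF1 was 759 bp wide and had 281.

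In mitochondrial DNA upkeep and transcription 6 of 15 genes had a region within 1000 bp (40%, 16.3 to 67.7). The polymerase genes POLG and POLRMT had 63 and 51. In the tricarboxylic acid cycle 7 of 19 had one (36.8%, 16.3 to 61.6), and SUCLG1, a succinyl-CoA ligase subunit gene, led with 211. The intervals of both lists include the share of all protein-coding genes. Of respiratory partner genes outside the name rule, 6 of 28 had one (21.4%, 8.3 to 41), a share near the 17.4% of all protein-coding genes. The highest tagcount of these was 58, at COA6. They also included CYCS, the cytochrome c gene (53), and SDHC of complex II (30).

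Motif matches were counted in the 300-base promoter windows of the 82 member genes that had a promoter-list region and an entry in the promoter table. The ETS and GABPA core was in 30 (36.6%, 26.2 to 48), against 24.1% of the promoters of other protein-coding genes with a promoter-list region, 14.2% of all protein-coding promoters and 10.7% of all promoters. Of the family genes with no region, 29 of 84 held it (34.5%, 24.5 to 45.7). These 84 include 12 whose divergent neighbour had a region, so the set is not wholly unmarked. The YY1 core was in 12 of 82 (14.6%, 7.8 to 24.2), against 7.52%, 3.91% and 3.03% in the same 3 sets, and in 21 of 84 family genes with no region (25%, 16.2 to 35.6). For both motifs, the intervals of family genes with and without a region lay above the share of all protein-coding promoters.

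**Figure D5:**
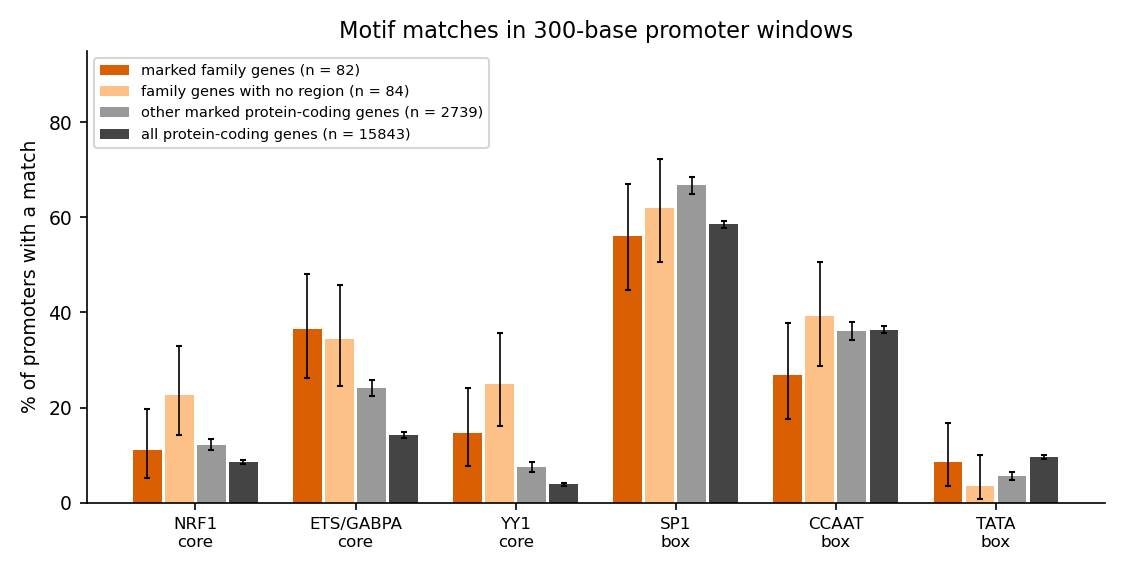
Share of promoters (%, y axis) with at least 1 match to each motif in the 300-base window, for family genes with a promoter-list region (n = 82), family genes with no region (n = 84), other protein-coding genes with a promoter-list region (n = 2739) and all protein-coding genes (n = 15843); bars start at 0 and error bars are exact 95% intervals. The ETS and GABPA and YY1 cores stand higher in both family sets than in all protein-coding genes, and for the SP1, CCAAT and TATA boxes the intervals of both family sets include the share of all protein-coding genes. Of the 84 family genes with no region, 12 had a divergent neighbour with a region.

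The NRF1 core was in 9 of 82 member promoters (11%, 5.14 to 19.8), against 12.2% of other marked protein-coding promoters, 8.58% of all protein-coding promoters and 6.28% of all promoters. It was in 19 of 84 family genes with no region (22.6%, 14.2 to 33), the set that includes 12 with a marked divergent neighbour. The SP1 box was in 56.1% of member promoters, against 66.7%, 58.5% and 44.6% in the 3 comparison sets, the CCAAT box in 26.8%, against 36.1%, 36.4% and 35.7%, and the TATA box in 8.54%, against 5.62%, 9.63% and 12%. The median share of G and C was 61.3% in member promoters and 62.7% in all protein-coding promoters. It was 63.7% in promoters of other protein-coding genes with a promoter-list region.

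Between clusters, the YY1 core was in 9 of 36 members with a cluster II region (25%, 12.1 to 42.2) and 3 of 45 with cluster III regions only (6.67%, 1.4 to 18.3). The 9 were ATP5J, MRPL20, MRPL42, MRPL46, MRPL50, MRPS10, NDUFA3, NDUFS7 and TOMM40L, and the 3 were COX10, MRPL36 and NDUFA9. The ETS core ran the other way, in 10 of 36 (27.8%, 14.2 to 45.2) and 19 of 45 (42.2%, 27.7 to 57.8). The intervals overlapped for both motifs, and these differences were not tested. Base composition was not even between these sets. The median share of G and C was 58.7% (quartiles 51.7 and 63.5) with a cluster II region and 63% (57 and 68.3) with cluster III regions only.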

How the data were processed

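H3R2me2a was measured by chromatin immunoprecipitation sequencing in control NT2/D1 cells with and without ATRA, and 5 region lists of these libraries were used. The submitters' processing notes name bcl2fastq, Bowtie2, MACS 1.4 and deepTools on hg19 (GRCh37), with no role or order. The authors deposited unscaled tag counts for each region, as tagcount in the promoter and enhancer lists and as MACS tags in clusters I and III, per the file headers. The signed distance to the nearest transcript start, its gene name, the position class (start window 1250 bp, upstream window 5000 bp) and the width are also the authors' own columns, per the file headers. The criteria for the clusters and classes, the control and the depth are not stated in the sources used here.

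The lists were joined on chromosome, start and stop, and all 8819 regions joined to 1 cluster. For cluster II the first of its pair of intervals was used, since it matched the promoter and enhancer lists. Shares carry exact Clopper-Pearson 95% intervals and medians exact order-statistic 95% intervals. No test was run, since there was 1 library per condition. Names were matched to RefSeq, which recognised 5278 of 6697 names and all 111 member names, and 3 family genes of the mitochondrial chromosome were left out of the family totals. RefSeq (GRCh38.p14) supplied names, gene types, divergent neighbours and promoter sequences, and GENCODE 44 the starts of the authors' transcripts; no coordinate was compared between builds. Of 87 member regions whose gene had a promoter sequence, 70 had a named transcript starting within 100 bp of the RefSeq start. Chromosome 12 was split into arms at 36 Mb. Python 3.11.15, pandas 2.3.3, numpy 2.4.6, scipy 1.17.1 and matplotlib 3.10.9 were used, and the joins, intervals and motif search were tested on simulated data.

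The members, gene lists and motifs were chosen with earlier results of these data known. Genes were named by rule: the 4 highest tagcounts per family, the 6 highest and 6 lowest ratios of MACS tags to tagcount in cluster III, members of cluster I, of the enhancer list or over 5000 bp from a start, genes with 2 or more regions, and up to 4 genes per outside list. The values of 1 gene that this rule names are not reported here. Other genes, named to show a role, a low value or an absence, were chosen after their values were seen. The alternatives were a tagcount minimum, protein-coding genes only, regions within 1000 bp, no chromosome 12, 1 region per gene, joins by overlap, other distances, pseudocounts and folds, and a window of 150 bases.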

Additional observations from a re-analysis of the deposited data

How the results depend on the processing

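Of 64 alternative values over 21 results, 52 stayed within the 95% interval of the reported value and 12 moved beyond it. Joins by overlap, counted among the 52, returned the same cluster II shares as joins on exact coordinates. Relative to the value over all features, 57 alternatives lay on the same side as the reported value and 7 on the other. With only regions at or above the median tagcount, the promoter-list share was 85.9% of members (62.8% of all regions). The share within 1000 bp was 85.9% (64%). The cluster II share was 59% (47% of all), and within the promoter list it was 64.2% (53.6%). Every cluster II member passed this minimum, so both cluster II shares of members could only rise. The median tagcount was 52, against 53 over all promoter-list regions. The share of cluster III promoter-list members with a ratio of at least 2 was 21.7% (16.5% of all). Without the minimum it was 31.4% (32.5%). The promoter-list share was 90.3% with protein-coding genes only (62.5% of all such regions) and 96.9% within 1000 bp of a start (87.5%). With a call at 4-fold, only TOMM6 of the 51 cluster III promoter-list members passed (1.96%, 0.0496 to 10.4), against 0.997% of all. In the last 150 bases, the NRF1 core was in 4.88%, the SP1 box in 41.5%, the CCAAT box in 12.2% and the TATA box in 1.22% of member promoters (6.17%, 47.1%, 23.4% and 5.91% of all protein-coding promoters); a shorter window can hold only fewer matches. The NRF1 share then lay below that of all protein-coding promoters. Without chromosome 12 the median ratio was 1.88 for members and 1.79 for all. Counting divergent neighbours and keeping only starts within 100 bp of the RefSeq start were chosen after seeing the data. No paired analysis was possible because each condition had 1 library. Depth is unknown, so regions below the authors' threshold cannot be seen, and counting intervals do not cover differences between cultures.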
